A study of Mus musculus with 6 samples.

Results

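The Zfp36 family of mRNA decay factors was followed through RNA precipitated with an antibody against phosphorylated S6, a ribosomal protein, from vomeronasal organs of CD-1 male mice. The family was taken by name as Zfp36, Zfp36l1 and Zfp36l2, 3 of the 38561 genes in the count table. The family was selected on the log2 fold change of Zfp36l1 between the 2 groups, known to be among the lowest of all genes, so the members' own differences are given as a description with no test. The groups were 3 libraries after exposure to pups and 3 after a control exposure, whose nature the labels do not describe. CD-1 is an outbred stock without a modified allele in the labels, and the labels give no age, no duration of exposure and no statement that libraries came from separate animals. P-values for other genes therefore rest on the spread of these libraries alone, and that spread may be technical. The vomeronasal organ is the nasal sense organ for pheromones, and S6 becomes phosphorylated in recently active neurons, so the antibody enriches for RNA on ribosomes of such cells.

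The family's proteins bind AU-rich elements in the 3′ UTRs of short-lived mRNAs through a pair of CCCH zinc fingers and recruit the CCR4-NOT complex, which shortens the poly(A) tail before the mRNA is decapped or degraded by the exosome. Zfp36, also called tristetraprolin, is induced rapidly by many stimuli and is best known for limiting Tnf in macrophages. Zfp36l1 and Zfp36l2, also called BRF1 and BRF2, act on similar elements in development and in lymphocytes. The activity of all of these proteins is lowered by phosphorylation by p38-MK2 and related kinases, after which 14-3-3 proteins bind them.

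The zinc-finger coding sequences of the members are shown because they encode the domain that defines the family, where reads of the members could be confused. They were read from the GRCm38 genome, each 174 bases in exon 2 of 2 on the minus strand, at chr12:80110075-80110248 for Zfp36l1, chr17:84186554-84186727 for Zfp36l2 and chr7:28378044-28378217 for Zfp36. Capitals mark the codons of the cysteines and histidines that hold zinc.
Zfp36l1: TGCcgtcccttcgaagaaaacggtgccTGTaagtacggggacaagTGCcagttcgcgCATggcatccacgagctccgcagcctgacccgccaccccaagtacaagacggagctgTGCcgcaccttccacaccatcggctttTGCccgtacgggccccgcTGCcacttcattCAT
Zfp36l2: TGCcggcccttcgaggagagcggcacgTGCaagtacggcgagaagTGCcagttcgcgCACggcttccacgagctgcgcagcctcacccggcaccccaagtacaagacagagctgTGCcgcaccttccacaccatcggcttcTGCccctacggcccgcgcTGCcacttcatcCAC
Zfp36: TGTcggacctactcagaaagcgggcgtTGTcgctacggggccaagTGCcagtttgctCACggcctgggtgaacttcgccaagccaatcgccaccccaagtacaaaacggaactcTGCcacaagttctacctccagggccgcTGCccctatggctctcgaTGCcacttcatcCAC
Zfp36l1 and Zfp36l2 were identical at 87.4% of these bases, with a longest identical run of 32 bases. Zfp36 was identical to Zfp36l1 at 67.8% and to Zfp36l2 at 69.0%, with longest runs of 17 and 15 bases. No word of 50 bases was shared between any of the 3 members over their longest transcripts.

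Each member's own 3′ UTR holds the nonamer TTATTTATT once, the element that the family is known to bind, and the shorter core TATTTAT 3 times. The nonamer is shown in capitals with its neighbours, 30 bases each on the minus strand, because it places the family's binding element in the family's own mRNAs. The windows are at chr12:80108167-80108196 for Zfp36l1, chr17:84184914-84184943 for Zfp36l2 and chr7:28376951-28376980 for Zfp36.
Zfp36l1 3′ UTR: aaactgttggaTTATTTATTttagaaattc
Zfp36l2 3′ UTR: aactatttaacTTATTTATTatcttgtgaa
Zfp36 3′ UTR: ttatgacgactTTATTTATTgtattaagat
The 3′ UTRs are 1835, 1822 and 774 bases long in the same order. A match is a description of the sequence and not evidence of binding.

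Total counts were 10590716 to 11240065 in the control libraries and 18199476 to 20871266 in the pup libraries, so depth moved with the group, and its part in the differences was not tested. Obp2a and Obp2b, secreted odorant-binding proteins, took 14.7% to 40.0% of a library's counts, with overlapping ranges. Levels are given as CPM, which relates counts to the size of the library after TMM scaling for such dominant genes. A log2 fold change is positive where pup libraries were higher, and the median over the 15498 genes tested was 0.03, with 5% of genes below -1.22 and 5% above 1.33. Of these genes, edgeR's quasi-likelihood test called 0 at an adjusted p under 0.05, while the unadjusted p was under 0.05 for 978 genes with a positive and 723 with a negative log2 fold change. These background counts depended on the scaling and on the libraries: they were 1336 and 168 with library totals alone, 463 and 400 without pup replicate 2, and 666 and 467 without control replicate 1. DESeq2 called 50 higher and 77 lower (0.406% and 0.626% of its genes), and limma-voom 1 and 7 (0.00645% and 0.0452%).

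Zfp36l1 (ENSMUSG00000021127, chr12:80107754-80113013, minus strand) was the abundant member in the control libraries and was much lower in the pup libraries. Its counts were 19416, 11272 and 6106 in the control libraries and 1127, 1321 and 2823 in the deeper pup libraries. Scaled, these were 1522.0, 1010.7 and 954.1 CPM against 60.4, 46.8 and 139.6 CPM. Every pup library lay below every control library, and the highest pup library was replicate 3. The mean was 1162.3 ± 312.8 CPM (SD, n = 3) in the control libraries and 82.3 ± 50.1 CPM (SD, n = 3) in the pup libraries, 14.1 times lower, with a log2 fold change of -3.82 (SE 0.54). Leaving out each library in turn gave -4.44 (without pup replicate 3) to -3.54. In a bulk sample, fewer cells of a type and less RNA per cell cannot be told apart.

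Zfp36l1 was the only member whose groups did not overlap, 1 of 3, and 9.60% of all genes tested had groups that did not overlap in that direction (10.1% in the other). Because this contrast chose the family, nothing is read from that count. Among all genes tested, 5 had a lower log2 fold change. Among the 996 genes with a control mean of at least 100 CPM, none had a log2 fold change below that of Zfp36l1. That set was formed on the control libraries alone, where Zfp36l1 was high, and the log2 fold change selected the family. Nothing is therefore read from these ranks either.

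Zfp36 (ENSMUSG00000044786, chr7:28376784-28380253, minus strand), the member known as an early response gene, had overlapping groups. It had 60.5, 41.2 and 21.4 CPM in the control libraries and 31.1, 46.0 and 32.3 CPM in the pup libraries. All pup libraries lay inside the range of the control libraries, which spread more widely. The means were 41.0 ± 19.6 and 36.5 ± 8.27 CPM (SD, n = 3 each), and the log2 fold change was -0.17 (SE 0.42). Its sign turned to 0.02 with library totals alone and to 0.22 without control replicate 1.

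Zfp36l2 (ENSMUSG00000045817, chr17:84183931-84187947, minus strand) was the scarce member, with 28, 22 and 22 counts in the control libraries and 158, 88 and 77 in the pup libraries. Scaled, these were 2.19, 1.97 and 3.44 CPM against 8.47, 3.12 and 3.81 CPM. The groups overlapped, and pup replicate 1 stood above the other 5 libraries. The means were 2.54 ± 0.79 and 5.13 ± 2.91 CPM (SD, n = 3 each), with a log2 fold change of 1.02 (SE 0.67). Without pup replicate 1 it was 0.46.

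Zfp36l3 (chrX:53774048-53776394), the other mouse gene of the family, is known from placenta and had 0 counts in all 6 libraries. A count of 0 allows up to 3 counts, or 0.106 to 0.469 TMM-scaled CPM by library, counting error only.

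**Figure D1:**
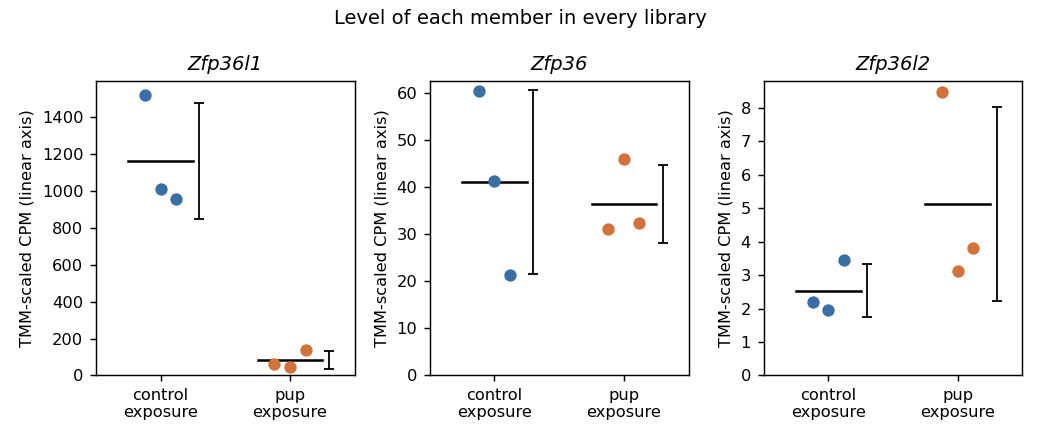
Level of each family member in the 6 libraries, in TMM-scaled CPM on the vertical axis, by exposure group. Each dot is a library, the black bar is the mean and the error bar the SD (n = 3). Zfp36l1 ran from 954.1 to 1522.0 CPM in the control libraries and from 46.8 to 139.6 CPM in the pup libraries, and the groups of the other 2 members overlapped.

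Because long genes collect more reads, members were compared with each other per kilobase of merged exons, 2990 bases for Zfp36l1, 3470 for Zfp36 and 3530 for Zfp36l2. On that scale Zfp36l1 had 509.0, 338.0 and 319.1 CPM per kb in the control libraries, which placed it 35th, 58th and 113th among 23390 genes with a length and a count. After pup exposure it had 20.2, 15.6 and 46.7 CPM per kb, ranks 1610, 1653 and 734. Zfp36 ranked between 1959 and 4462 in every library, and Zfp36l2 between 8166 and 13468. The order Zfp36l1, Zfp36, Zfp36l2 was the same in all 6 libraries.

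As a share of the family's summed level per kb, Zfp36l1 made up 96.6%, 96.5% and 97.8% in the control libraries and 64.0%, 52.5% and 81.8% in the pup libraries. Zfp36 made up 3.31%, 3.38% and 1.89% of the family in the control libraries and 28.4%, 44.5% and 16.3% in the pup libraries. The share of Zfp36l2 was 0.118% to 0.299% and then 1.89% to 7.60%. These shares followed the level of Zfp36l1: the sum of Zfp36 and Zfp36l2 was 12.5 ± 5.46 CPM per kb in the control libraries and 12 ± 1.94 in the pup libraries (SD, n = 3 each), while the sum of all 3 members was 401.3 ± 109.6 and 39.5 ± 15.3. Per kb, Zfp36l1 exceeded Zfp36 by 29.2, 28.5 and 51.7 times in the control libraries and by 2.26, 1.18 and 5.01 times in the pup libraries. In pup replicate 2, the level of Zfp36l1 was thus close to that of Zfp36.

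**Figure D2:**
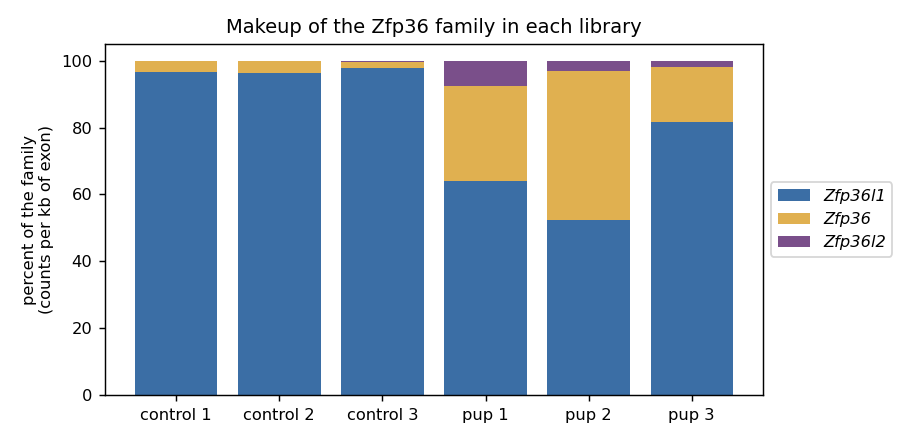
Makeup of the family in each library, in percent of the summed level per kilobase of merged exons. The stacked colours are the 3 members. Zfp36l1 made up 96.5% to 97.8% in the control libraries and 52.5% to 81.8% in the pup libraries.

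Counts at the Zfp36l1 locus could include reads of other genes. Zfp36l1-ps (chrX:38180728-38181626, plus strand), a processed pseudogene named after its values were seen, was identical to the Zfp36l1 mRNA at 94.7% of 903 aligned columns. The stretch below shows how the copies differ, 90 bases at chr12:80109620-80109709 (minus strand) and chrX:38181506-38181595 (plus strand), with the 3 mismatched bases in capitals.
Zfp36l1: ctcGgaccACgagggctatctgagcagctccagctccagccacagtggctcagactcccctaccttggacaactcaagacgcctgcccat
Zfp36l1-ps: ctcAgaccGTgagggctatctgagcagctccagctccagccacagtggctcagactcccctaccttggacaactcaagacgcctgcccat
The pseudogene had 46, 30 and 19 counts in the control libraries and 6, 7 and 10 in the pup libraries, 0.237 to 0.532 per 100 counts of Zfp36l1. Its log2 fold change was -3.10 (SE 0.94). Since 11.3% of its 50-base words occur in Zfp36l1 and the treatment of shared reads is not given, its values are uncertain. They amount to at most 0.532 per 100 counts of Zfp36l1 in a library.

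Gm26669 (chr12:80108034-80113000, plus strand), an antisense lincRNA over Zfp36l1 that was also named after its values were seen, overlaps its exons. Of the 2941 words of the Zfp36l1 transcript, 56.9% occur in Gm26669, on the other strand, or in the pseudogene. Whether counting used strand is not given, so reads of the gene and its antisense partner may not be told apart. Gm26669 was given 6, 3 and 12 counts in the control libraries and 29, 5 and 1 in the pup libraries. Zfp36 shared 2.52% and Zfp36l2 1.61% of their words with other genes.

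The genes next to the members had groups that overlapped. 2310015A10Rik, 7533 bases away from Zfp36l1, had 14.6 ± 2.61 CPM in the control libraries and 20.4 ± 5.28 in the pup libraries (SD, n = 3 each). Zfyve26, which lies 811450 bases away on the other side as the nearest tested gene, had 3.96 ± 1.98 and 6.45 ± 2.08 CPM. Plekhg2 and Med29 beside Zfp36, and Mta3 and Thada beside Zfp36l2, likewise overlapped.

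The genes whose log2 levels followed each member most closely over the 6 libraries were ranked among 8350 genes (8351 for Zfp36l2) with a mean of at least 10 CPM. For Zfp36l1 these were Sdr39u1 (Pearson r 0.997), Cdpf1 (0.994), Smim5 (0.991), Zmat5 (0.991) and Exosc7 (0.989). Sdr39u1 had 200.7, 163.7 and 152.4 CPM in the control libraries and 44.7, 42.1 and 59.9 in the pup libraries, so that its highest pup library was also replicate 3. Exosc7 encodes a subunit of the RNA exosome, which degrades mRNAs from the 3′ end. For Zfp36 they were Psmf1 (0.981), Cep89 (0.980), Nono (0.980), Rnf121 (0.979) and Slco4a1 (0.979), and none of these had groups that were apart. For Zfp36l2 they were Slc33a1 (0.990), Galnt1 (0.985), Retreg2 (0.973), Gas2 (0.971) and Gmcl1 (0.971), each highest in pup replicate 1. With 6 libraries that share depth and group, such values are a description and say nothing of shared control.

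The machinery that the family recruits was described with lists of genes, 119 tested in all. No gene of any list passed the adjusted threshold in edgeR's quasi-likelihood test, the percentage called being 0% over all genes too. The unadjusted p was under 0.05 for 18 of the 119 with a positive and 5 with a negative log2 fold change, beside 6.31% of all genes higher and 4.67% lower. With library totals alone, 26 of these were higher and 2 lower, and without control replicate 1 or without pup replicate 2, 9 were higher. By DESeq2, Rc3h2, Cxcl1 and Cxcl2 were higher and Exosc7 lower at an adjusted p under 0.05, beside 0.406% and 0.626% of genes tested. The calls below are at the unadjusted p, for which no correction was passed.

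Among the 15 genes of the CCR4-NOT deadenylase and its recruiters, 4 were higher, none was lower and the median log2 fold change was 0.43 (0.72 without control replicate 3, 0.64 without pup replicate 3 and 0.85 with library totals alone). They were Cnot6, a catalytic subunit, Cnot9, a subunit that binds recruiting proteins, and Btg2 and Tob2, which bring the deadenylase to the poly(A) tail. Cnot6 had 18.8 ± 8.12 CPM in the control libraries and 52.3 ± 33.0 in the pup libraries (SD, n = 3 each), and its groups did not overlap, with a log2 fold change of 1.48 (SE 0.51). Pup replicate 1, at 89.5 CPM, was the highest library, and without it the log2 fold change of Cnot6 was 0.85. Btg2, an early response gene as well, had 103.6, 55.2 and 42.0 CPM and then 98.9, 182.3 and 163.3 CPM, groups that overlapped. Of 6 genes for the Pan2-Pan3 deadenylase and poly(A) proteins, 1 was higher, Pan3, at 28 ± 12 against 64.9 ± 24 CPM (SD, n = 3 each).

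Of 15 decapping and 5′ decay genes, only Xrn1, the 5′ exonuclease, was called, at 8.17 ± 2.25 CPM in the control libraries and 22.1 ± 15.6 in the pup libraries (SD, n = 3 each), groups that overlapped. That is 1 of 15 genes, a share near the 6.31% over all genes, and without pup replicate 1 the log2 fold change of Xrn1 went from 1.44 to 0.76. Of the 15 tested exosome genes, 5 were lower and 1 was higher, and the median was -0.66. That median was -0.29 without pup replicate 2, -0.43 without control replicate 1 and -0.46 with library totals alone. The 3′ UTRs of these exosome genes were 32 to 2379 bases long. Over all genes, 3′ UTR length went with the log2 fold change, as given below, and its part in the list medians was not tested. Exosc7 had 84.2, 54.6 and 48.4 CPM in the control libraries and 14.6, 12.8 and 23.7 in the pup libraries, with a log2 fold change of -1.88 (SE 0.40). Exosc5 (-1.52), Exosc8 (-1.46), Wdr61 (-1.05) and Exosc4 (-0.87) were the other exosome genes that were lower, and Wdr61 belongs to the Ski complex that feeds the exosome. Dis3, the catalytic subunit, was higher, at 1.78 ± 1.18 against 6.35 ± 3.19 CPM (SD, n = 3 each). It was 1 of 15, again a share near the 6.31% higher over all genes.

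Other RNA-binding proteins that compete for AU-rich elements or share decay targets were higher in 5 of 20 cases and lower in none, and 19 of the 20 had a positive log2 fold change, with a median of 0.85 (0.55 in limma-voom with quality weights). Rc3h2, a Roquin protein that marks mRNAs for decay through stem-loops, had 14, 7.71 and 10.5 CPM in the control libraries and 35.7, 58.6 and 23.7 in the pup libraries, with a log2 fold change of 1.87 (SE 0.45). Elavl2 (0.99), a stabilising Hu protein, Pum2 (0.97), a translational repressor, and Khsrp (0.87), a decay factor, were also among those that were higher. The 3′ UTRs of the 20 genes were 856 to 7381 bases long, and the part of that length in the median was not tested. Among 23 kinases, phosphatases and 14-3-3 proteins that act on the family, 2 were higher, the kinase Rps6ka3 at 4.65 ± 1.88 against 12.7 ± 6.48 CPM and the 14-3-3 gene Ywhag at 46.1 ± 1.80 against 83.2 ± 23.9 CPM (SD, n = 3 each). That is 2 of 23 genes, a share near the 6.31% higher over all genes, so nothing is read from it. The median of that list was 0.15, and -0.02 without pup replicate 1.

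**Figure D3:**
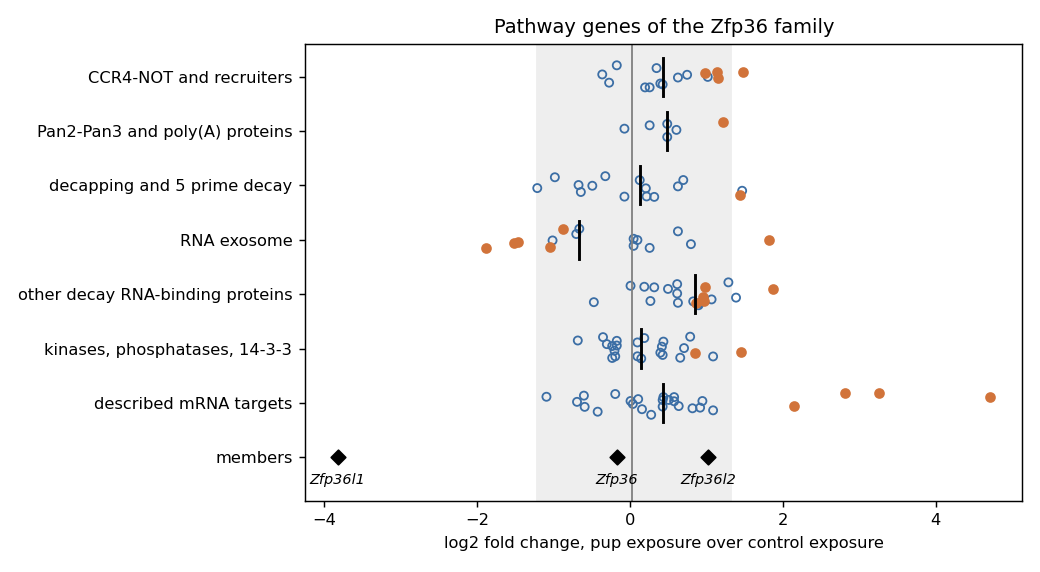
Log2 fold change, pup over control exposure, of every tested gene of the 7 pathway lists, 1 point a gene. Orange points had an unadjusted p under 0.05 and open blue points did not, black bars are list medians, diamonds are the family members, and the grey band spans the central 90% of all genes tested, -1.22 to 1.33. The exosome list has its median at -0.66, and the list of other RNA-binding proteins at 0.85.

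Described targets of the family came from the literature as remembered, and 26 of 32 were tested. Csf2, Il2, Il6, Il10, Il3 and Ccl3, cytokine genes, had too few counts. Of the 26, 4 were higher at the unadjusted p, none was lower, 20 had a positive log2 fold change and the median was 0.44. That median was 0.24 without control replicate 3, 0.27 without pup replicate 1 and 0.17 in limma-voom. The 4 were the cytokine Tnf, the chemokines Cxcl1 and Cxcl2, which attract neutrophils, and the cytokine Lif. Tnf and Lif passed the count filter through the pup libraries, where they were higher. Their place among the tested genes thus favours a positive value, and the count of 4 is a description.

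Cxcl1 had 1.49, 9.15 and 12.2 CPM in the control libraries and 76.7, 54.0 and 27.6 CPM in the pup libraries, with a log2 fold change of 2.81 (SE 0.66). Cxcl2 had 6.90, 2.60 and 3.44 CPM and then 30.5, 19.4 and 8.01 CPM, with a log2 fold change of 2.15 (SE 0.59). For both, every pup library was above every control library, and pup replicate 3, in which Zfp36l1 was highest among the pup libraries, was the lowest of them. Both were highest in pup replicate 1, whereas Zfp36l1 was lowest in pup replicate 2. In control replicate 1, where Zfp36l1 was highest, Cxcl2 was the highest and Cxcl1 the lowest of the control libraries. Over only 3 libraries a group, these orders are a description.

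Tnf had 0, 2 and 0 counts in the control libraries and 41, 60 and 27 in the pup libraries. The ratio of the summed counts, adjusted for scaled library size, was 28.9, with an exact 95% interval from counting of 7.83 to 240.8, which covers counting error only. Lif had 21, 1 and 0 counts in the control libraries and 66, 344 and 46 in the pup libraries, and pup replicate 2 held most of them. Its log2 fold change was 3.26 (SE 1.18) and moved between 2.24 and 6.60 when a library was left out.

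The nonamer windows of these genes are shown because they hold the element in several copies, 5 in Tnf, 2 in Cxcl1, 4 in Cxcl2 and 2 in Lif. One window per gene is given, with 1 nonamer in capitals, at chr17:35199689-35199718 (minus strand), chr5:90892907-90892936, chr5:90905315-90905344 and chr11:4272038-4272067 (plus strand). The Tnf window also holds the copy from base 445 of the 3′ UTR, which overlaps the marked copy from base 438.
Tnf 3′ UTR: atttgcacttaTTATTTATTatttatttat
Cxcl1 3′ UTR: aagaatgtcagTTATTTATTgaaagtcgtc
Cxcl2 3′ UTR: tgagagttcacTTATTTATTtatctatgta
Lif 3′ UTR: caaaggggcctTTATTTATTatttaaaact
Among the 17 tested targets with a nonamer, 14 had a positive log2 fold change and the median was 0.58. Among the 9 without one, 6 did and the median was 0.16. Their 3′ UTRs differed in length as well, with medians of 1494 and 613 bases. Tnf and Lif, which passed the count filter through the pup libraries, are among the 17.

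Other targets are given as examples chosen after their values were seen. Fos, a nonamer gene and the common marker of neuronal activity, had 30.7 ± 6.21 CPM in the control libraries and 45.9 ± 8.46 in the pup libraries (SD, n = 3 each). Its groups did not overlap, and its log2 fold change was 0.58 (SE 0.35). Dusp1, a phosphatase that lowers p38 activity, had 27.6 ± 19.9 and 58.5 ± 16.9 CPM. Ptgs2, Ier3 and Plk3 had log2 fold changes of 0.82, 0.64 and 0.58, and Pim1, Ccnd1 and Nfkbia of 0.11, 0.04 and 0.01. The 6 tested targets with a negative value were Notch1 (-1.09), Plaur (-0.69), Cdkn1a (-0.6), Hif1a (-0.59), Myc (-0.42) and E2f1 (-0.19).

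**Figure D4:**
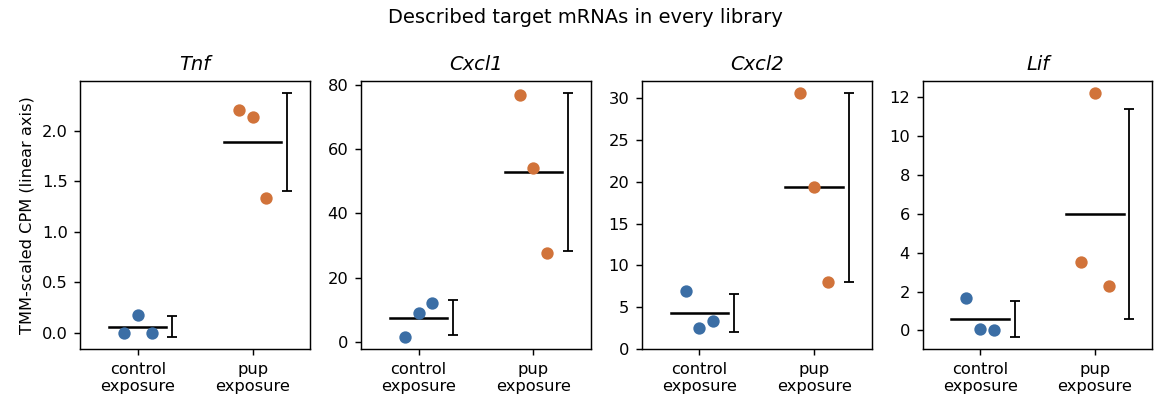
Levels of Tnf, Cxcl1, Cxcl2 and Lif, described targets of the family, in TMM-scaled CPM, by exposure group. Each dot is a library, the black bar is the mean and the error bar the SD (n = 3). Cxcl1 ran from 1.49 to 12.2 CPM in the control libraries and from 27.6 to 76.7 CPM in the pup libraries.

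Across the transcriptome, 13699 tested genes had an annotated 3′ UTR. The nonamer was searched on the mRNA strand of the longest coding transcript, where TATTTAT lies inside every nonamer. It was absent from 12581 genes, with a median log2 fold change of 0.04, present once in 872, with 0.33, and present at least 2 times in 246 (1.80% of these genes), with 0.35. At an unadjusted p under 0.05, 15% of the genes with at least 2 nonamers were higher and 3.25% lower, beside 6.34% and 5.02% of those without. Genes with nonamers also had longer 3′ UTRs, medians of 2895 bases for at least 2 and 1134 for none. Without pup replicate 2, the median of genes with at least 2 nonamers minus that of genes with none was 0.155.

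Length of the 3′ UTR by itself went with the log2 fold change. In 4 equal classes of 3′ UTR length, from the shortest to the longest, the median over all genes was -0.39, -0.10, 0.25 and 0.47. Within these classes, the median of genes with at least 2 nonamers minus that of genes with none was -0.09 in class 2, -0.01 in class 3 and 0.02 in class 4, from 27, 58 and 155 such genes. In class 1, it was 0.29 from 6 genes, too few to rest a statement on. Genes with the core TATTTAT were higher than genes without it in each length class, by medians of -0.21 against -0.40, 0.07 against -0.13, 0.35 against 0.20 and 0.51 against 0.42. Genes with the nonamer, the longer element, had medians of -0.28, 0.05, 0.31 and 0.49. In class 1, 0.813% of genes with the core and 0.944% of those without were higher at the unadjusted p. Length still varied within a class, from 2389 to 122583 bases in class 4, so it was not held constant. The 3′ UTR of Zfp36l1 falls in length class 3, whose median is 0.25, and its own value was -3.82.

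**Figure D5:**
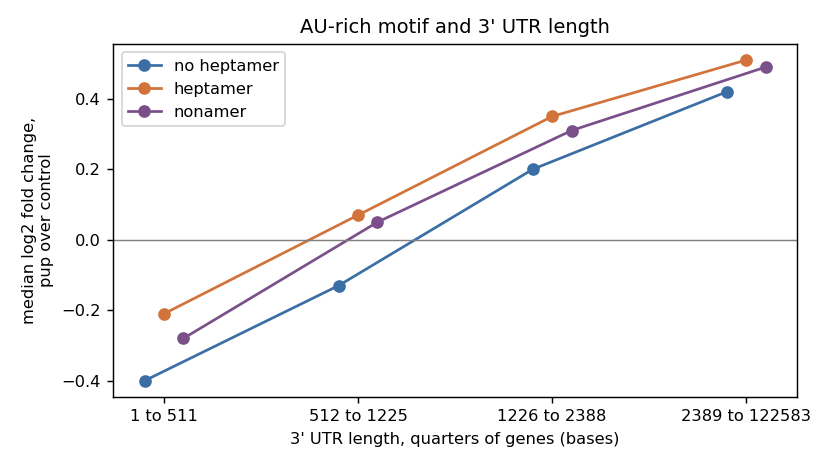
Median log2 fold change, pup over control exposure, in each of 4 classes of 3′ UTR length, for genes with and without the AU-rich heptamer and with the nonamer. From the shortest to the longest class, genes without the heptamer went from -0.40 to 0.42 and genes with the nonamer from -0.28 to 0.49.

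The cells behind these levels were described with marker lists. Vomeronasal sensory neuron markers had summed levels of 2844.8 to 4029.5 CPM in the control libraries and 2538.7 to 2832.4 in the pup libraries, and Omp, the mature neuron marker, had 865.3 ± 84.5 and 758.9 ± 86.2 CPM (SD, n = 3 each). All 10 of these markers had counts in all libraries. Groups were apart, with pup libraries lower, for 1 of the 10, a share near the 9.6% of all genes tested. The summed level was nevertheless lower in every pup library than in every control library. Calb2, the most abundant of the 10, had 1616.0 ± 597.7 and 887.9 ± 176.2 CPM (SD, n = 3 each), with groups that overlapped. Of the 10, 6 had a negative and 4 a positive log2 fold change. The listed neuron markers were thus present in both groups, and vomeronasal receptors were not among them.

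Sustentacular markers, of the supporting cells of the epithelium, had a summed level of 3887.2 to 4500.8 CPM in the control libraries and 1588.3 to 2340.1 CPM in the pup libraries. Groups did not overlap, with pup libraries lower, for 4 of 8 markers, beside 9.60% of all genes tested. Of the 7 tested, Cbr2 and Cyp2g1 had an unadjusted p under 0.05, none passed the adjusted threshold in edgeR's test, and Sox2 (0.34) and Cyp1a2 (0.57) had positive log2 fold changes. Cbr2 made up most of that sum, at 3029.7 ± 178.2 against 1237.0 ± 315.2 CPM (SD, n = 3 each), a smaller ratio than that of Zfp36l1. Endothelial markers summed to 110.8 to 118.4 and 61.4 to 74.6 CPM, of which S1pr1, a sphingosine phosphate receptor, had 68.4 ± 4.33 and 13.5 ± 2.98 CPM (SD, n = 3 each). It was the 1 endothelial marker whose pup libraries were all lower, while 8 of 12 had positive log2 fold changes, the median was 0.40 and Tek had all pup libraries higher. Pecam1, Cdh5 and Tek were at 3.44 CPM or less in every library. Red cell genes summed to 205.1 to 591.5 and 54.5 to 167.8 CPM. The part of these cells in the level of Zfp36l1 was not tested.

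Markers of immune cells, where Zfp36 and its cytokine targets are best known, were read the same way. Lymphocyte markers summed to 6.88 to 7.08 CPM in the control libraries and 3.86 to 8.11 in the pup libraries, and 6 of 9 had too few counts to test. Macrophage and myeloid markers summed to 152.3 to 566.1 and 69.0 to 1149.5 CPM, a spread set by Lyz2, which reached 441.2 CPM in control replicate 1 and 1074.4 in pup replicate 3. Of the 10 macrophage and myeloid markers, 8 had a negative log2 fold change, and the median was -0.28. Cd68 was lower in the pup libraries, at 37.9 ± 6.29 against 12.5 ± 3.03 CPM (SD, n = 3 each). The 2 markers with a positive value were Lyz2 (1.03) and Csf1r (0.14). Fibroblast markers had summed levels of 721.5 to 926.8 and 591.5 to 933.2 CPM, and smooth muscle and pericyte markers 1693.8 to 2418.5 and 1501.5 to 1862.1 CPM. The part of these cells in the family's levels was not tested. No library of unprecipitated RNA was analysed here, so the amount of Zfp36l1 mRNA in the tissue and its share in the precipitate cannot be told apart.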

How the data were processed

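The values are raw read counts by Ensembl gene in 6 libraries, as deposited. Per the labels' protocols, lysates were precipitated with an antibody to phosphorylated S6 and cDNA was made with a SMARTer kit. The submitters' processing notes name the build GRCm38. How reads were aligned and counted, and whether strand was used, is not given in the sources used here. Of 38561 gene IDs, 36723 were named from GENCODE M21, which also gave coordinates, lengths and 3′ UTRs. Groups came from the labels' titles. Libraries of a group were compared, and none was a copy of another (chi-square divided by its degrees of freedom, 86.2 to 299.7).

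The counts were fitted with edgeR 4.0.16 (quasi-likelihood, intercept and group, R 4.3.3) after filterByExpr (minimum count 10, minimum total 15) and TMM scaling, with Benjamini-Hochberg adjustment over 15498 genes and a threshold of 0.05. SEs were derived from the F statistic. The fit was tested on simulated data. Alternatives were other scalings and filters, DESeq2 1.42.0, limma-voom (limma 3.58.1) with and without quality weights, a replicate block and leaving out each library. Text names the members, Zfp36l3, up to 4 genes of smallest unadjusted p per pathway list, up to 4 of highest CPM per marker list, the 5 most alike genes and the tested neighbours. Fos, Dusp1, Khsrp, Exosc4, Dis3, Nfkbia, Ccnd1, Pim1, Ptgs2, Ier3, Plk3, Myc, Csf1r, Cd68, Pecam1, Cdh5 and Tek fall outside this rule or were named after their values were seen. Notch1, Plaur, Cdkn1a, Hif1a and E2f1 were also named after their values were seen. Members and lists were chosen with earlier results of these data known. One gene that the naming rule allows is not reported here.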

Additional observations from a re-analysis of the deposited data

How the results depend on the processing

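The log2 fold change of Zfp36l1 ran from -3.97 to -3.51 over all alternatives that kept every library and from -4.44 to -3.54 over those that left one out. Zfp36l2 stayed positive throughout (0.83 to 1.33, and 0.46 to 1.31 with a library left out), and Zfp36 lay on both sides of 0 (-0.22 to 0.02, and -0.51 to 0.22). Library totals alone moved the median of all genes to 0.31, so members are read relative to it there. With the replicate number as a block, Zfp36l1 was at -3.97, Zfp36 at -0.07 and Zfp36l2 at 0.92. The labels do not say whether the numbers pair the libraries. Deviations of same-numbered libraries correlated at -0.04, 0.18 and 0.07, and those of differently numbered ones at -0.256 to 0.139, which does not settle it. Over all genes, edgeR's 0 calls became 61 higher and 59 lower with no filter, 50 and 77 in DESeq2, 1 and 7 in limma-voom, 1 and 11 with quality weights, and stayed at 0 and 0 with any library left out. Pathway genes lower at an unadjusted p under 0.05 numbered 5, 2 with library totals alone, 8 with quality weights and 4 to 8 with a library left out, and those higher 18, 26 with library totals alone and 9 to 22 with a library left out. Of the latter, 9 were left without control replicate 1 or pup replicate 2. Genes with at least 2 nonamers less genes with none differed by 0.31 in median, 0.155 to 0.385 with a library left out, 0.508 for the heptamer, and -0.0872, -0.0134 and 0.0248 within classes 2, 3 and 4 of 3′ UTR length, a split chosen after seeing the data. With a library left out, list medians ran from 0.39 to 0.72 for CCR4-NOT, 0.02 to 0.69 for Pan2-Pan3 and poly(A) proteins, -0.22 to 0.26 for decapping, -0.73 to -0.29 for the exosome, 0.64 to 1.0 for other RNA-binding proteins, -0.02 to 0.21 for kinases and 14-3-3 proteins and 0.24 to 0.52 for described targets. Exosc7, Rc3h2, Cxcl1 and Cxcl2 passed the adjusted threshold in DESeq2 and with no filter. Zfp36l2, with 22 to 158 counts per library, is limited by depth.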
